A study of Mus musculus with 3 samples.

Results

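Matches to the seed of miR‐19 were followed through the 3′UTR peaks of an Ago2 HITS‐clip experiment on N2A cells. These cells are a neuroblastoma line of the mouse and were grown under basal conditions. HITS‐clip crosslinks proteins to the RNA they touch with ultraviolet light, immunoprecipitates Argonaute 2 (Ago2) and sequences the attached RNA. A site was chosen when its 7‐nt match to positions 2 to 8 of miR‐19b‐3p lay in a stretch of 3′UTR, 8 nt or longer, over which deposited peaks on the transcript's strand came from at least 2 of the 3 libraries. Of 30343 such stretches, 417 held a match, and 11 of them held 2. These 428 covered sites lay in 395 genes and made up 15.5% of the 2770 matches in the 21028 annotated 3′UTRs. The share of all 7‐nt windows of these 3′UTRs that lay in a stretch was 9.8%. A stretch with or without a match was held by 34.6% of all genes with a 3′UTR and by 52.1% of those with a match. Because coverage chose the sites, their coverage is given here as a description and is not tested.

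The 3 libraries came from 1 line and 1 group, the basal N2A cells, crosslinked at 400 and then at 200 mJ per square cm. Libraries without the antibody and total RNA of the same cells were not analysed here, so abundance of a transcript and binding to it cannot be told apart. The table lists intervals without read counts, so read depth is unknown. Replicate 1 reached the fewest 3′UTRs, with a peak in 7321 genes against 9394 in replicate 2 and 10175 in replicate 3, although it did not hold the fewest peaks. Of the markers of sympathetic neuroblasts, the cell type of this line, 8 of 12 had a covered 3′UTR stretch, among them Hand2 and Isl1. Among markers of other cells this was so for 1 of 6 myeloid, 1 of 6 erythroid, 0 of 4 astrocyte, 1 of 4 oligodendrocyte and 1 of 4 fibroblast genes.

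miRNAs guide Argonaute proteins to transcripts mainly by pairing of their seed, the bases near their 5′ end, and the bound transcripts are repressed by deadenylation, decay and reduced translation. The miR‐19 family is encoded in the miR‐17~92 cluster, which the MYC proteins induce, and in the related cluster on the X chromosome. miR‐19 is known as the main oncogenic component of this cluster in B cell lymphoma.

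The mature sequences are shown because the whole selection rests on their seed, printed in capitals (positions 2 to 8, from RefSeq's mouse records). The other members of the cluster and let‐7a‐5p, which is unrelated, served for comparison.
mmu-miR-19a-3p: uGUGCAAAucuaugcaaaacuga
mmu-miR-19b-3p: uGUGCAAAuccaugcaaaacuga
mmu-miR-17-5p: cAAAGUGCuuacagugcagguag
mmu-miR-18a-5p: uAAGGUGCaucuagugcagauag
mmu-miR-92a-3p: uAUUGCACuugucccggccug
mmu-let-7a-5p: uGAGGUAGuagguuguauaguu
miR‐19a‐3p and miR‐19b‐3p share their seed and differ by 1 substitution, U11C, counted from the 5′ end of miR‐19a‐3p. They cannot be separated by the match, which reads TTTGCAC in the transcript. A match followed by adenosine is an 8mer and any other is a 7mer‐m8. A 7mer‐A1 pairs with positions 2 to 7 and is followed by adenosine, and a 6mer pairs with positions 2 to 7 alone.

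Covered sites in known targets of miR‐19 are shown next, as 15 bases before the match and 1 after it, with the match and a following adenosine in capitals.
Socs1, chr16:10783933-10783939, minus strand: catattcccagtatcTTTGCACA
Socs3, chr11:117966160-117966166, minus strand: cagttcaactcagacTTTGCACA
Tgfbr2, chr9:116090077-116090083, minus strand: caacagccaataacgTTTGCACt
Bmpr2, chr1:59870683-59870689, plus strand: ttttgttttttaagtTTTGCACt
Cyld, chr8:88747199-88747205, plus strand: tttaataagaagcatTTTGCACt
Ccnd1, chr7:144931005-144931011, minus strand: aacaacagtaggtaaTTTGCACA
Rhob, chr12:8498176-8498182, minus strand: ttgatgaaagagttcTTTGCACA
Coordinates are those of GRCm38 (mm10) and give the 7‐nt match, and all lie in 3′UTR exons of GENCODE M21. These are the 7 of 17 listed targets in which a match was covered. With 14 of the 17 holding a match, this was 50%, beside 16.5% of all 2391 genes with a match. Among the 1245 genes that held both a match and a stretch, 31.7% held a covered site. On that base the listed targets held a covered site in 7 of 13 genes. The 7 targets became 3 with peaks trimmed by 30 nt, and also 3 without replicate 2 or without replicate 3. The list was compiled from what is known of miR‐19 in other cells. It was chosen with earlier results of these data known, so its share is not independent of them. Abundance in N2A cells was not measured here.

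The targets of the list differed in how many libraries covered them. Matches in Socs1 and Socs3, suppressors of cytokine signalling, and in Tgfbr2, the type II TGF‐beta receptor, lay under peaks of all 3 libraries. Bmpr2, a type II BMP receptor, Cyld, a deubiquitinase of NF‐kappaB signalling, Ccnd1, which encodes cyclin D1, and Rhob, a small GTPase, were covered in replicates 2 and 3 only. Thus, 3 of the 7 genes were covered in every library, and the remaining 4 lacked replicate 1, the library with the fewest 3′UTR peaks.

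Not every known target held a covered site. No library covered the match of Bcl2l11, which encodes the pro‐apoptotic protein Bim, of Prkaa1, a catalytic subunit of AMP kinase, or of Kat2b, an acetyltransferase, although all 3 libraries had a peak elsewhere in each of these 3′UTRs. The same held for the 5 matches of Atxn1, all more than 1500 nt from the stop codon, with replicates 1 and 3 having a peak in its 3′UTR. Ppp2r5e, a regulatory subunit of phosphatase 2A, was covered in replicate 3 alone. Tnfaip3, a ubiquitin editor of NF‐kappaB signalling, was covered in replicate 2 alone, as was 1 of 2 matches of Esr1, the oestrogen receptor. Smad4, Cul5 and Tlr2 held no 7‐nt match in the 3′UTR used.

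Whole pathways were then examined, with lists that were also chosen with earlier results of these data known. Of 38 genes of TGF‐beta and BMP signalling, 15 held a match and 9 of them, 60%, a covered site, beside 16.5% of all genes with a match. Counted over genes with a match and any stretch it was 9 of 12, beside 31.7%. They spanned the receptors Tgfbr2, Acvr1b and Bmpr2, the signal transducers Smad5 and Smad9, and the negative regulators Skil, Smurf2, Bambi and Tgif1. All 3 libraries covered the sites of Tgfbr2, Smurf2, Bambi and Tgif1, and replicates 2 and 3 the others. No match of Smad1, Smurf1, Inhba, Inhbb or Zeb2 was wholly covered in any library, and that of Tgif2 was covered in 1.

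In the G1 to S phase list, 6 of 28 genes held a match and 4 of these a covered site, again beside 16.5% of all genes with a match. All 6 held a stretch, and among all genes with a match and a stretch the share was 31.7%. They were Ccnd1 and Ccnd2, which encode D type cyclins, Cdkn1b, which encodes the cyclin‐dependent kinase inhibitor p27, and E2f8, an atypical E2F repressor. None of these 4 was covered in all 3 libraries, and the count fell to 0 with peaks trimmed by 30 nt or without replicate 2, to 1 without replicate 3 and to 2 with peaks of 86 to 200 nt only. E2f8 was covered in replicates 1 and 2 and the others in replicates 2 and 3. The match of E2f2, an activating E2F, was covered in 1 library and that of Wee1, a kinase inhibiting mitotic entry, in none. Each list is small and was chosen with earlier results of these data known, so its share is only a description of these genes.

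The miRNA silencing machinery itself was examined after covered sites had been seen in some of its genes, so its count is not independent of that observation. Here 10 of 15 genes with a match held a covered site, beside 16.5% of all genes with a match, or 10 of 14 with any stretch, beside 31.7%. Ago2, the immunoprecipitated Argonaute, was one of the 10. All of Tnrc6a, Tnrc6b and Tnrc6c, the GW182 scaffolds that link Argonaute to deadenylases, held one. The deadenylase genes Pan3, Cnot6 and Cnot7, the CCR4‐NOT associated ubiquitin ligase gene Cnot4, and the decapping genes Dcp2 and Patl1 made up the rest. Pan3, Cnot4 and Cnot6 held 2 covered sites each. Only Tnrc6b, Cnot4 and Cnot6 were covered in all 3 libraries. In Ago1, Ago3, Cnot6l and Btg1 at most 1 library covered a match, and in Ddx6 none did. Tnrc6a was covered in replicates 1 and 2, and Ago2, Tnrc6c, Pan3, Cnot7, Dcp2 and Patl1 in replicates 2 and 3.

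Coverage of the whole set was uneven among libraries. Of the 428 sites, 91 lay under peaks of all 3 libraries. The remaining 337 comprised 275 covered in replicates 2 and 3, 33 in replicates 1 and 2 and 29 in replicates 1 and 3. Most of the set therefore rested on replicates 2 and 3. Of the matches that were not chosen, 611 were wholly covered in 1 library and 1731 in none. When the strand of the peaks was reversed, 16 matches met the same rule.

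Of the sites in all libraries 42 of 91 were 8mers, as were 176 of 428 in the whole set and 617 of all 1475 matches in 3′UTRs with a stretch, so the share of 8mers among the covered sites was about that of all these matches. The 8mers in the shortest stretches shared by all libraries were Zbtb10 (16 nt), a zinc finger gene, Chd2 (25 nt), a chromatin remodeller, Syt1 (29 nt), the calcium sensor of synaptic vesicles, Acsl4 (35 nt), an acyl‐CoA synthetase of polyunsaturated fatty acids, and Tgif1 (38 nt). They were followed by Tspan2 (48 nt), Timp2 (50 nt), Mxd4 (53 nt), Arrdc3 (68 nt), Desi2 (74 nt), Ift57 (75 nt), Rell1 (76 nt), Bambi (80 nt), Socs1 (81 nt) and Brwd3 (82 nt). As the deposited peaks seem to carry 30 nt of padding at either end, a shared stretch under 60 nt may lie in the padding and does not locate the pairing. A shorter shared stretch, of 13 nt, held a 7mer‐m8 in Fem1b, which was looked up after its value was seen. The first 4 are printed as examples of 8mers covered in every library.
Zbtb10, chr3:9281205-9281211, plus strand: aagaatttttttataTTTGCACA
Chd2, chr7:73427358-73427364, minus strand: tgcttacagcagaagTTTGCACA
Syt1, chr10:108500393-108500399, minus strand: cagatcctgttttaaTTTGCACA
Acsl4, chrX:142320649-142320655, minus strand: gctctctgatttccaTTTGCACA
Their predicted duplex energies with miR‐19b‐3p were -10.2, -15.1, -14.6 and -10.9 kcal per mol in this order. The median of all covered sites was -12.8 kcal per mol, so these sites lay on both sides of it.

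Repeated sites were found in 29 of the 395 genes with a covered site. Among all matches in 3′UTRs with a stretch, 29.0% lay in one. Genes with 2 or more matches were not counted, so whether 29 is many or few cannot be told. Taok1, a kinase that acts upstream of p38 and JNK, held 4 covered sites, all of its matches, and 1 of these was covered in all 3 libraries. Acsl4 and Tmem65, a mitochondrial membrane protein gene, held 3 each, again all of their matches, with 2 in each gene covered in all libraries. The next genes in alphabetical order with 2 were AW549877, Arl6ip1, Atrx, Bbx, Cacul1, Cbx7, Cnot4, Cnot6, Dpysl5, Esyt2, Impdh1 and Kpna4. Some pairs lay close together on 1 stretch. The starts of the pair in Cnot4 were 8 nt apart, in Skil 25 nt, in Cacul1 31 nt and in Bbx 38 nt. Sites on 1 stretch share peaks and are not independent observations.

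Stretch length varied widely. The stretches of the covered sites had a median of 126.5 nt and ranged from 9 to 1901 nt, compared with a median of 86 nt for all stretches. This difference follows in part from the rule, as longer stretches hold more matches. The shortest was in Atrx, which encodes a chromatin remodeller, where 9 nt were shared by replicates 1 and 3 directly after the stop codon. It was followed by C9orf72 (17 nt), Dnajb14 (17 nt), Taok1 (28 nt) and Esyt2 (28 nt). On the other side of the threshold, 0 matches lay in shared coverage under 8 nt. A further 32 matches were only partly inside shared coverage, and 5 of these had 6 of 7 nt inside it, among them those in Lipa, Kdm2a, Bmt2 and Adipor1. A few sites were covered by very broad peaks, the narrowest peak over a site reaching 48218 nt in replicate 2.

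To see how far coverage followed the match itself, the 1475 matches in the 7275 genes with a stretch were compared with all 7‐nt windows of the same 3′UTRs. Matches were wholly covered in 14.0% of cases in replicate 1, 44.9% in replicate 2 and 38.1% in replicate 3, on average 32.3% ± 16.3 (SD, n = 3). All windows gave 10.9%, 31.8% and 30.9%, on average 24.5% ± 11.8. The match was thus covered more often than other windows in each library, by 1.28, 1.41 and 1.23 times (mean 1.31 ± 0.0943). The exact two‐sided sign permutation test over 3 libraries gave p = 0.25, the smallest it allows. Over all 2770 matches, also those in 3′UTRs without a stretch, 8.05%, 26.5% and 21.7% were covered, on average 18.7% ± 9.56. Of the matches in 3′UTRs with a stretch 29.0% lay in one, and of the windows 19.9%. The reverse complement of the match, which has as many A and U letters and was used as a control, gave 13.4%, 37.0% and 34.7%. The match exceeded it by 0.605, 7.95 and 3.36 percentage points, on average 3.97 ± 3.71 (exact sign permutation p = 0.25). In replicate 1 the match and its reverse complement were therefore almost level. The control is not free of miRNA matches, as its first 6 nt are those of the miR‐92a‐3p match.

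**Figure D1:**
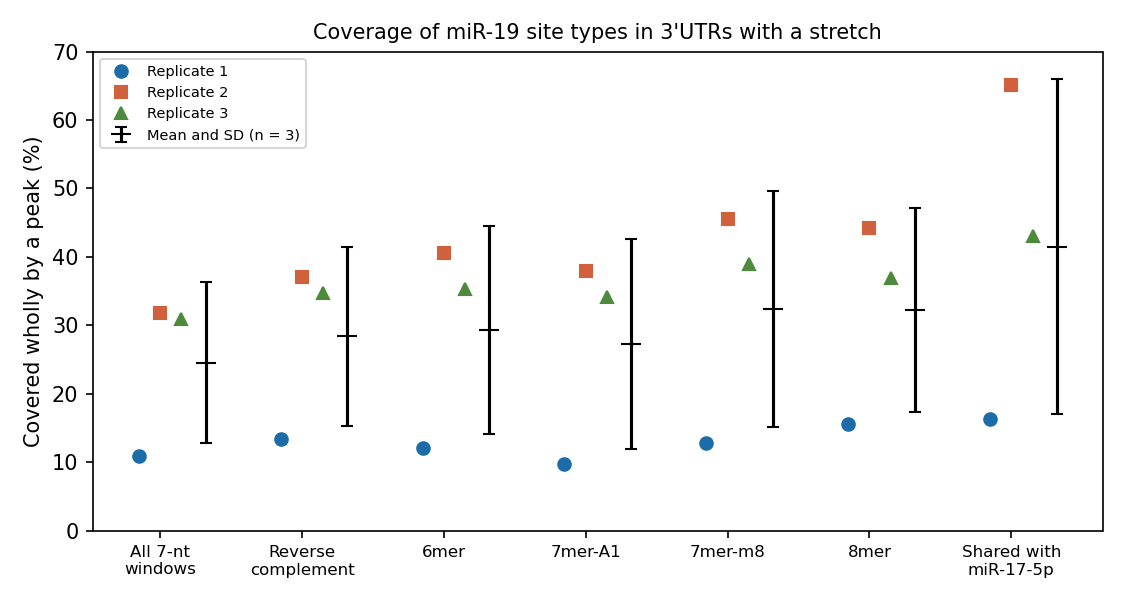
Share of miR‐19 site types wholly covered by a peak (y axis, %) in 3′UTRs with a stretch, for each library (coloured symbols) with the mean and SD of 3 libraries (black). All 7‐nt windows averaged 24.5%, 7mer‐m8 and 8mer sites 32.4% and 32.3%, and matches sharing bases with a miR‐17‐5p match 41.5%, while replicate 1 was lowest for every type.

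Site types differed little beyond this. On average 29.3% ± 15.2 of 6mers, 27.3% ± 15.3 of 7mer‐A1, 32.4% ± 17.3 of 7mer‐m8 and 32.3% ± 14.9 of 8mers were covered (SD, n = 3). Pairing at position 8 went with higher coverage in each library, since 7mer‐m8 sites exceeded 6mers by 0.776, 4.96 and 3.59 percentage points (mean 3.11 ± 2.13, exact sign permutation p = 0.25). The base facing position 8 is uridine, and 7‐nt sequences with more A and U letters were in general denser inside stretches. Their median log2 ratio of density inside stretches to the rest was -0.33 with 3 such letters and -0.007 with 4. Composition and pairing were not separated here. The 7mer‐A1 sites lay below the 6mers in each library, with differences of -2.29, -2.51 and -1.19 percentage points in replicates 1, 2 and 3.

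Adenosine after the match, which Argonaute recognises without pairing, did not go with higher coverage of miR‐19 sites. The share covered among matches with adenosine minus that among other matches was 2.74, -1.21 and -1.97 percentage points in replicates 1, 2 and 3. The mean of -0.15 ± 2.53 was smaller than the spread between libraries (exact sign permutation p = 1). For the comparison miRNAs the same difference was positive in every library. It was on average 5.70 ± 1.32 for miR‐17‐5p, 6.27 ± 2.26 for miR‐18a‐5p, 8.08 ± 4.29 for miR‐92a‐3p and 10.5 ± 3.92 percentage points for let‐7a‐5p. The reverse complement of the miR‐19 match, which is the full match of none of them, also gave positive values of 2.45, 12.2 and 5.25 percentage points (mean 6.62, SD 4.998). Compared directly, the difference for miR‐19 was smaller in each library than that of each of the 4 miRNAs, by 5.85 ± 3.59, 6.42 ± 3.66, 8.23 ± 6.11 and 10.6 ± 6.24 percentage points in the same order. Against the reverse complement it was smaller in replicates 2 and 3 and slightly larger in replicate 1, with a mean gap of 6.77 ± 6.84 (exact sign permutation p = 0.5). The 4 comparisons with miRNAs each gave an exact sign permutation p of 0.25, the smallest possible with 3 libraries, so none of the 5 can pass a threshold of 0.05, also after adjustment. By the base that followed, on average 32.3% of miR‐19 matches were covered before adenosine, 35.1% before uridine, 27.2% before cytidine and 28.7% before guanosine.

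**Figure D2:**
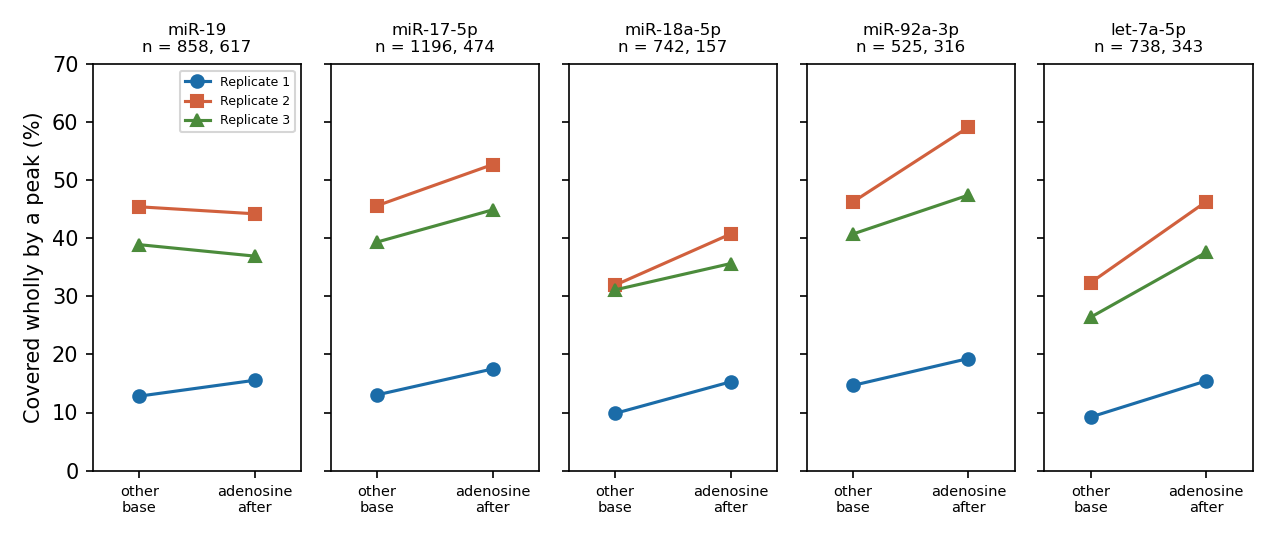
Share of matches wholly covered by a peak (y axis, %) with another base or with adenosine after the match, for miR‐19 and 4 comparison miRNAs; each line is 1 library and n gives the matches without and with adenosine. The lines rise in all libraries for the 4 comparison miRNAs, by 5.70 to 10.5 percentage points on average, but only in replicate 1 for miR‐19.

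Part of the uridine group overlaps a site of another member of the cluster. The ends of the miR‐19 and miR‐17‐5p matches can share 4 nt, giving the 10‐nt sequence TTTGCACTTT, in which both seeds cannot pair at once. Of the 428 covered sites, 36 were of this kind. In the 86 such matches in 3′UTRs with a stretch, coverage was 16.3%, 65.1% and 43.0% in the 3 libraries, above that of all miR‐19 matches by 2.31, 20.2 and 4.92 percentage points (mean 9.13 ± 9.64, exact sign permutation p = 0.25). The excess was thus mostly that of replicate 2. Without these matches, 33.9% ± 17.7 were covered before uridine, and the difference with adenosine against all other bases was 3.12, 0.982 and -1.52 percentage points. It turned positive on average, 0.86 ± 2.32, and stayed within the spread between libraries. Named genes with a combined site are printed because either miRNA could account for their coverage, with the 10 nt in capitals.
Tgfbr2, chr9:116090074-116090083, minus strand: caacagccaataacgTTTGCACTTT
Bmpr2, chr1:59870683-59870692, plus strand: ttttgttttttaagtTTTGCACTTT
Smad5, chr13:56738253-56738262, plus strand: cattaatcttttcatTTTGCACTTT
Skil, chr3:31119657-31119666, plus strand: tggggaagggcagccTTTGCACTTT
Cnot4, chr6:35045651-35045660, minus strand: tttctcatttgcacaTTTGCACTTT
Cnot7, chr8:40493590-40493599, minus strand: ttgtggaccatcaagTTTGCACTTT
Tmem65, chr15:58783336-58783345, minus strand: tcatatattgttttcTTTGCACTTT
Acsl4, chrX:142319306-142319315, minus strand: ttaatactgttattcTTTGCACTTT
Of the 9 genes of TGF‐beta and BMP signalling, 4 held such a site, and 6 kept a covered miR‐19 site when combined sites were left out, because Skil held a second one. Of the 7 known targets with a covered site, Tgfbr2 and Bmpr2 were of this kind.

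Where the match lay within a peak was not used by the rule. Around the centres of peaks of 86 to 200 nt, matches were counted per 100000 windows in steps of 20 nt. At the centre they reached 19.4 in replicate 1, 21.8 in replicate 2 and 13.6 in replicate 3. Only in replicate 2 did the centre stand clearly above all other steps. In replicate 1 the step from 70 to 50 nt upstream of the centre was level with it at 19.4 (39 matches, and 40 at the centre), and in replicate 3 the step from 30 to 10 nt upstream held 13.7. Within 30 nt of the centre the density was 1.30, 1.36 and 1.16 times that beyond 90 nt in replicates 1, 2 and 3 (mean 1.27 ± 0.105). For 8mers this ratio was 1.82, 1.35 and 1.26, and for the reverse complement 1.08, 1.22 and 1.13. The match therefore exceeded its reverse complement in each library, narrowly in replicate 3. In peaks of at most 85 nt the ratios were 1.09, 0.982 and 1.08 for the match, so the values of narrow and wider peaks did not overlap. The reverse complement had ratios of 1.08, 1.03 and 0.996 in the narrow peaks. Its values in narrow and wider peaks were level in replicate 1 and differed in the other libraries. Whether the match and its reverse complement differed in this was not tested. In the narrow peaks the central step alone was higher than its neighbours in replicates 2 and 3, reaching 18.3 in replicate 3, and rested on 36 and 37 matches.

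**Figure D3:**
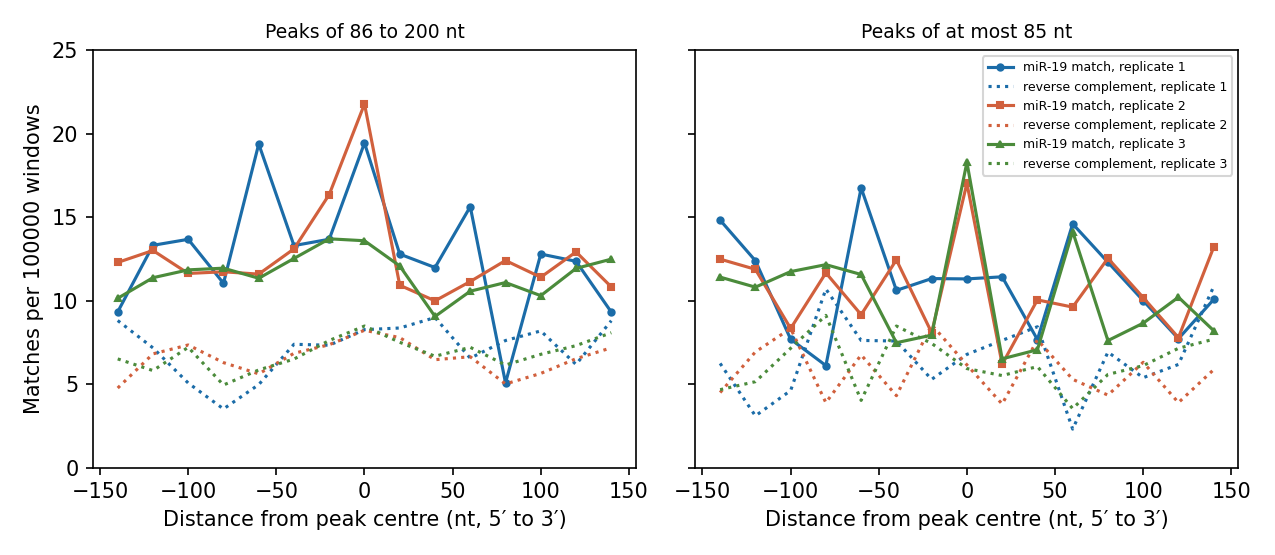
Matches to miR‐19 (solid lines) and to their reverse complement (dotted) per 100000 windows of 3′UTR (y axis) against the distance of the match from the peak centre in nt (x axis, 5′ to 3′), for peaks of 86 to 200 nt (left) and at most 85 nt (right), 1 line per library. In the wider peaks replicate 2 has its maximum of 21.8 at the centre, replicate 1 reaches 19.4 both there and 70 to 50 nt upstream, and replicate 3 shows no clear central maximum.

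Along the covered stretches, cut into 3 equal parts, the middle part held the centre of 45.1% of the sites, beside 35.3% for evenly spread sites. The part towards the 5′ end held 32.0% and that towards the 3′ end 22.9%, with 32.3% for either if even. Sites were therefore fewest towards the 3′ end of the stretches.

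Each library was also held out in turn, with stretches and sites chosen from the other pair. Chosen matches were covered in the held‐out library in 24.9%, 75.8% and 73.4% of cases when replicates 1, 2 and 3 were held out (91 of 366, 91 of 120 and 91 of 124). Other matches in the same 3′UTRs were covered in 10.4%, 50% and 36.1% (7 of 67, 17 of 34 and 13 of 36). The differences were 14.4, 25.8 and 37.3 percentage points, on average 25.8 ± 11.4 (exact sign permutation p = 0.25, the smallest possible). All 7‐nt windows treated alike gave 12.2, 30.9 and 30.1, on average 24.4 ± 10.6 percentage points. The recurrence of coverage at miR‐19 sites was thus about that of any window. The chosen matches themselves were covered more often than the chosen windows, which reached 20.4%, 63.7% and 63.0%. For the reverse complement the difference was 10.2, -4.04 and 28.0 percentage points, on average 11.4 ± 16.1. For the other miRNAs it was on average 33.5 ± 10.5 for miR‐92a‐3p, 15.7 ± 6.34 for miR‐17‐5p, 16.2 ± 6.29 for miR‐18a‐5p and 16.2 ± 5.65 for let‐7a‐5p.

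**Figure D4:**
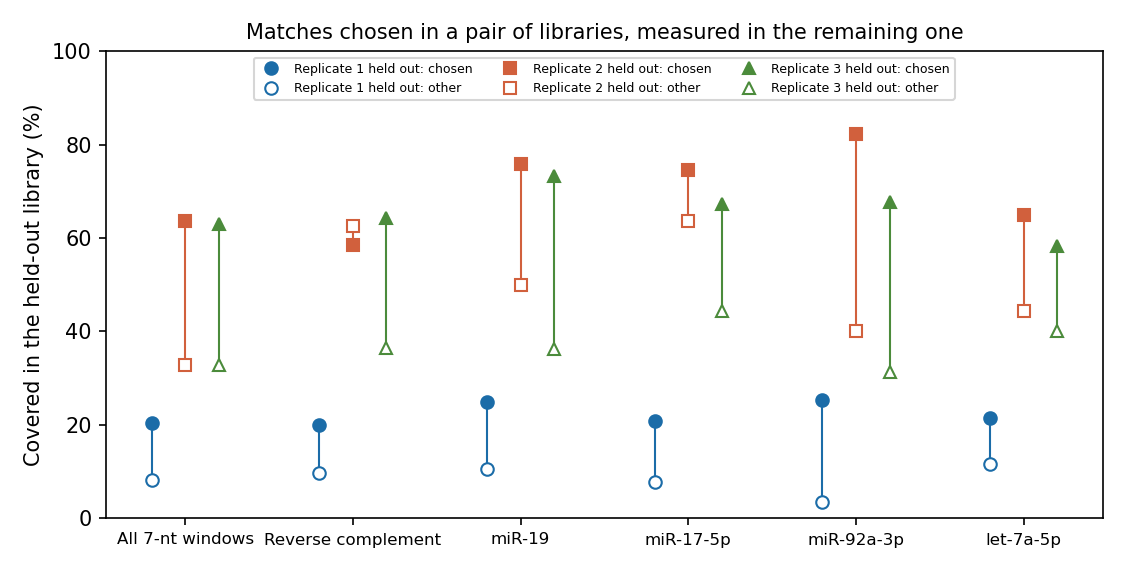
Share covered in the held‐out library (y axis, %) of matches chosen in the other pair of libraries (filled symbols) and of other matches in the same 3′UTRs (open symbols), with 1 colour for each held‐out library. For miR‐19 the filled symbols lie 14.4 to 37.3 percentage points above the open ones, beside 12.2 to 30.9 for all 7‐nt windows.

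Sequence around the sites was compared with the 75 other matches in the same 3′UTRs, which occurred in 68 of the genes. Flanks of 30 nt on each side of the covered sites had a median A or U content of 61.7%, against 56.7% for the other matches. Within genes the covered sites had the higher content in 45 and the lower in 22 of 68, with a median difference of 5 percentage points. The stretches in general were rich in A and U, at 61.3% against 55.7% in the rest of these 3′UTRs, and the content of the flanks was close to that of the stretches. Pairing beyond the seed was similar in both groups. A match to positions 13 to 16 within 13 nt upstream was present at 8.18% of the covered and 8% of the other sites, with 5.66% of the 972 matches in 3′UTRs with a stretch but no covered site, and median duplex energies were -12.8 and -12.9 kcal per mol. A miR‐17‐5p match started within 60 nt of 11.9% of the covered sites, of 12% of the others in the same 3′UTRs and of 6.07% of those 972 matches. These shares include the combined sites that share 4 nt. Such sites were 36 of the 428 covered sites, 8 of the 75 others and 42 of the 972.

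The covered sites had a median distance of 831.5 nt from the stop codon. In the 68 genes that also held other matches, the median was 1031 nt for the covered sites and 1674 nt for the others. Within these genes the covered sites lay nearer to the stop codon in 44 and farther in 24. Of the matches between 100 and 500 nt from the stop codon, 20.8%, 52.5% and 47.5% were covered in replicates 1, 2 and 3. Beyond 1500 nt these shares were 12.3%, 38.3% and 30.1%. All windows showed the same order, at 29.5% ± 14.4 and 21.1% ± 9.94 on average.

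Among 15057 sequences of 7 nt, the match ranked 611 by its density inside stretches relative to the rest of the same 3′UTRs, with a log2 ratio of 0.70. Among the 4378 with equally many A and U letters it ranked 103. The match of miR‐92a‐3p ranked 12 of all (log2 ratio 1.17), that of miR‐17‐5p ranked 65 (0.99), and the reverse complement of the miR‐19 match ranked 2487 (0.39). miR‐18a‐5p and let‐7a‐5p followed at 5190 and 5010. In whole 3′UTRs with a stretch, matches of miR‐92a‐3p were also covered more often than those of miR‐19, by 4.60 ± 1.93 percentage points and in each library (exact sign permutation p = 0.25, with 4 comparisons made). Those of miR‐17‐5p exceeded miR‐19 by 1.97 ± 1.41 in each library, while miR‐18a‐5p and let‐7a‐5p lay below it in each, with mean differences of -6.94 ± 4.20 and -6.34 ± 3.09.

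Of the 3 miR‐19 genes, Mir19a and Mir19b-1 held peaks. All libraries had 2 peaks on the Mir19a hairpin (chr14:115044000-115044081, plus strand), and in each the central part of 1 peak, without 30 nt at either end, overlapped the miR‐19a‐3p arm by at least 15 nt. On the Mir19b-1 hairpin (chr14:115044305-115044391, plus strand) each library had 1 peak, the central part of which did not reach that overlap with the miR‐19b‐3p arm in any library. It did so with the other arm, miR‐19b‐1‐5p, in replicates 1 and 2. The Mir19b-2 hairpin (chrX:52741983-52742066, minus strand) had 0 peaks. As mature miR‐19b‐3p is identical from both of its genes, reads from it can map to either, and how the authors placed such reads is not given in the sources used here.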

How the data were processed

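Ago2 HITS‐clip was performed on 3 samples of N2A cells. Peaks were called by the authors sample by sample, and 1 table of their coordinates, strand and score was deposited. The submitters' processing notes name FastQC, cutadapt, STAR and the build mm10, without versions. The peak caller and its threshold are not given in the sources used here. The deposited score has no stated unit, was 60 for 98.9% to 99.6% of peaks and was not used. The libraries held 711377, 498071 and 829936 peaks, at most 1.57% of them identical between a pair. Starts were read as counted from 0. They went down to -30, so peaks appear to be padded by 30 nt, which blurs where a site lies within its peak. Precision is limited by 3 libraries, and nothing says whether they were separate cultures, so the spread may be technical.

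3′UTRs were the longest of each protein‐coding gene in GENCODE M21 without the stop codon, on 21 chromosomes. Sequence came from GRCm38. A match was covered in a library when all 7 nt lay under same‐strand peaks. Differences between classes of sites were taken within each library and tested over the 3 libraries with an exact two‐sided sign permutation test. Densities of 7‐mers used a pseudocount of 0.5 and at least 20 occurrences. Duplex energies came from RNAduplex (ViennaRNA 2.7.2), over the 30 nt ending with the site. Counting was tested on simulated data. Scripts ran in Python 3.11.15 with pysam 0.24.0, numpy 2.4.6, pandas 2.3.3 and scipy 1.17.1, and plots were drawn with matplotlib 3.10.9.

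The sites and gene lists were chosen with earlier results of these data known. Named were 17 known targets, up to 15 genes with an 8mer in the shortest stretch common to all libraries, up to 15 with at least 2 covered sites, covered genes of the signalling and cell cycle lists, and the sites nearest the length threshold. The silencing list was added after its values were seen, and other genes named within lists were also chosen then. Alternatives were the number of libraries, trimmed, narrow or shorter peaks, stretch length, strand, merged 3′UTR parts, another comparison set, each replicate left out and, added after seeing the data, sites combined with miR‐17‐5p left out. Sequences from chromosome 18 are not printed. Some items are not reported here and were left out of the lists and their counts.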

Additional observations from a re-analysis of the deposited data

How the results depend on the processing

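The number of covered sites depended on the libraries required and on the padding of peaks. The 428 sites became 91 with all 3 libraries required, 199 with peaks trimmed by 30 nt and 16 with the strand reversed, and ranged from 120 to 366 when a replicate was left out, being 120 without replicate 2 and 124 without replicate 3. All 199 sites under trimmed peaks were among the 428, and 4 of the 16 on the reversed strand were. With trimming, 3 of the 7 known targets, 6 of the 9 genes of TGF‐beta and BMP signalling and 0 of the 4 genes of the G1 to S phase list kept a site, and 7 of the 10 silencing genes. Without replicate 2 the first 3 lists held 3, 4 and 0 genes with a site and without replicate 3 they held 3, 4 and 1. The silencing list held 3 without replicate 2, 4 without replicate 3 and 3 with all libraries required. The difference with adenosine after the match, -0.15 percentage points, became 0.24 with trimmed peaks, 2.06 with the strand reversed and 0.86 without the sites combined with miR‐17‐5p, and ranged from -0.74 to 0.49 when a replicate was left out. The share covered among all 2770 matches of all 3′UTRs, on average 18.7%, was 11.4% with trimmed peaks and 3.18% with the strand reversed and ranged from 14.9% to 24.1% when a replicate was left out. The held‐out difference of 25.8 percentage points ranged from 20.1 to 31.6 when a replicate was left out of the mean and from 20.9 to 26.7 under the other alternatives that gave a value. With the strand reversed it could not be computed, as too few sites remained. The ratio of the coverage of matches to that of all windows rose from 1.31 to 1.55 with trimmed peaks and to 1.41 with peaks of 86 to 200 nt, and fell to 1.10 with the strand reversed. No paired analysis was possible because the samples form 1 group, so that no replicate number pairs samples across groups. Values within a library were compared library by library. Read depth is unknown, and no interval for counting error is given.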

Other observations

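Matches in coding sequence were counted in the same way, in the longest coding sequence of each gene and in the 7187 genes with a covered coding stretch. Of 917 miR‐19 matches there, 10.4%, 30.4% and 29.1% were wholly covered in replicates 1, 2 and 3, on average 23.3% ± 11.2 (SD, n = 3). All 7‐nt windows of these coding sequences gave 9.11%, 21.3% and 23.9%, so the match was covered 1.14, 1.43 and 1.22 times as often. Its reverse complement gave 10.5%, 27.1% and 27.7%, and thus exceeded the match in replicate 1 and lay below it in replicates 2 and 3.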
